A study of Rattus norvegicus with 8 samples.

Results

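The baseline transcriptome of rat thymocytes kept in culture without added hormone was described from 4 Control arrays out of the 8 arrays of the series. The 4 were chosen by their treatment label alone. Each Control culture held primary cells from the pooled thymi of 3 adrenalectomized male Sprague-Dawley rats, filtered through mesh and incubated for 6 h in medium with serum and without dexamethasone. Removing the adrenal glands takes away the animals' main source of corticosterone. The age of the rats is not given in the sources used here. The labels give 4 replicates while the study's methods speak of 3 biological replicates, and nothing says which arrays share a preparation, so the spread between arrays may be technical in part. The other 4 arrays, from cultures given dexamethasone, enter no comparison of levels, though all 8 arrays were normalized together, and only their detection flags were set beside those of the Control arrays. The array carries 41012 probes of 60 bases for rat transcripts under 35581 gene names, and the brightest probe stands for a gene. Of the gene names, 15640 could be tied to a gene of the RefSeq rat table, which gave 15548 different symbols.

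The thymus is where T cell progenitors rearrange the genes of their antigen receptor, and most of its cells are immature thymocytes that carry both Cd4 and Cd8 and await selection. These cells depend on signals through the T cell receptor and its Cd3 chains, on the Rag recombinase, and on a set of transcription factors that fix the T cell fate. They are also known for dying readily when exposed to glucocorticoids. Mesh filtration does not select for thymocytes, so RNA of other thymic cells is part of what was measured. In such a bulk sample, fewer cells of a type and less RNA per cell cannot be told apart.

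A gene was called detected when the scanner software flagged its probe as well above background on all 4 Control arrays, and absent when it was flagged on none. Detected genes numbered 24344 of 35581, or 68.4%, and absent genes 4697, or 13.2%. For 4688 of the absent genes, every probe of the gene was at 0 on all 4 arrays. The remaining 6540 gene names were flagged on 1 to 3 arrays and are called intermittent. Of these, 2969 failed on Control 1 alone, against 8, 124 and 67 that failed only on Control 2, 3 or 4. Control 1 had 28666 probes above background, and the other 3 arrays had 33150 to 34476. Control 1 was hybridized on another slide than the other 3 Control arrays, so array and slide cannot be told apart for it. Among genes with a symbol, 11924 of 15548 were detected (76.7%), 758 were abundant (4.88%) and 1240 were absent (7.98%). The counts for gene groups given further on are to be read against these shares.

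The deposited values are log2 signals brought to a common distribution across arrays, and a value below refers to this scale. The mean value of detected genes ran from 3.05 to 18.42 with a median of 7.20. Detected genes at or above the 95th percentile, a mean of 12.79, were called abundant. Those below the 25th percentile, a mean of 5.31, were called dim, and those between were called moderate. This gave 1218 abundant, 17040 moderate and 6086 dim gene names. The border of the abundant class has no gap: Eif3a lay just inside at 12.80 and Btf3 just outside at 12.79. Probes differ in how well they bind, so the classes rank probe signals and do not measure how many transcripts of one gene there are per transcript of another.

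**Figure D1:**
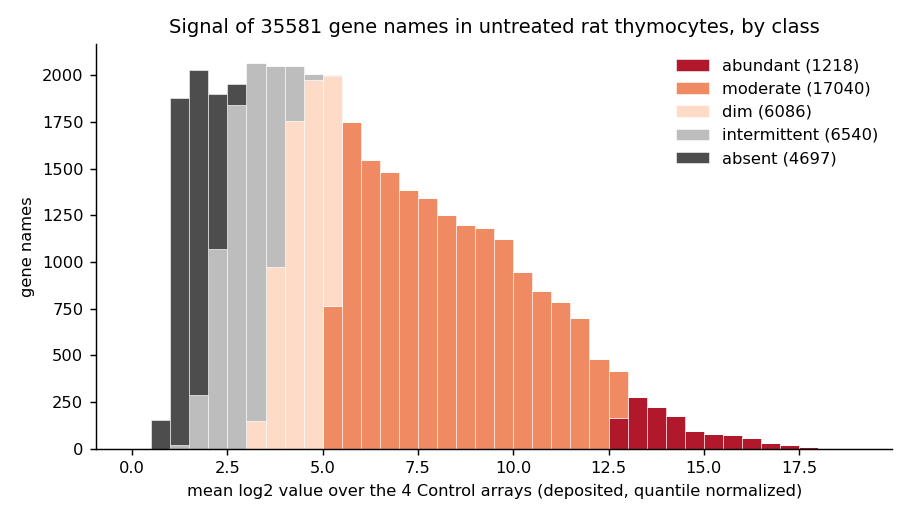
Number of gene names (vertical axis) by mean log2 value over the 4 Control arrays (horizontal axis, deposited quantile normalized values), stacked by class. The 4697 absent gene names all lie at the low end, the 6540 intermittent ones overlap with the 6086 dim ones, and the 1218 abundant ones form the tail above 12.79.

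The 5 markers that identify the cells as thymocytes were detected on every array. Cd8a, the coreceptor chain of class I restricted and double positive T cells, read 15.13, 15.49, 15.34 and 15.20 on Control 1 to 4, with a mean of 15.29 ± 0.158 (SD, n = 4). Lck, the kinase that starts T cell receptor signaling, read 14.11, 14.27, 14.14 and 14.33. Both were abundant, and their 4 values lay close together. Cd3e, a signaling chain of the receptor, read 12.41, 12.20, 12.23 and 12.07, which placed it in the moderate class. Cd4 was moderate as well, with values of 9.25, 9.50, 9.36 and 9.53. Rag1, a subunit of the recombinase that cuts receptor genes, had the widest spread of the 5, with values of 10.62, 10.91, 10.09 and 10.16 and an SD of 0.389. A separate Rag1 probe read 10.23, 10.54, 9.98 and 10.07, so on both probes Control 2 was the highest array and Control 3 the lowest. The labelled cell type thus had all of its markers above background.

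Genes of the T cell receptor complex and its proximal signaling were detected without exception, 24 of 24, and 11 of them were abundant. The highest were Cd3d, at 17.07 ± 0.0463, and Cd3g, at 16.97 ± 0.211, both invariant chains of the receptor. They were followed by Cd8b, Cd6, Cd8a, the adaptor Lat, the kinase Zap70 and Lck. Cd247, which encodes the zeta chain, was moderate at 12.54 ± 0.0735. The lowest of the group was the costimulatory receptor Cd28, which was dim at 4.92 ± 0.173. Cd8b was the member of the largest SD, 0.550: it read 17.00 on Control 1 and 16.19, 15.86 and 15.81 on the other arrays. Its partner Cd8a was lowest on Control 1, so the chains of the Cd8 dimer did not vary together.

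The recombination machinery was also fully represented, with 11 of 11 genes detected and 2 abundant. Lig4, the ligase that seals the rearranged ends, read 14.61 ± 0.214 and was the highest of the list. Dclre1c, which encodes the hairpin-opening nuclease Artemis, was abundant at 12.88 ± 0.392. Rag2, the partner of Rag1, read 11.64, 11.62, 11.58 and 11.51 and hardly varied. Ptcra, the surrogate chain of the pre-T cell receptor, read 12.22 ± 0.159. Dntt, the terminal transferase that adds untemplated bases at the joints, varied the most, with 11.48 on Control 1 against 12.50, 12.45 and 12.17 on the others. Xrcc5, which encodes a Ku subunit of the end-joining complex, was the lowest at 8.12 ± 0.252.

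All 24 measured transcription factors of the thymocyte list were detected, 7 of them in the abundant class. Ets1, a factor of the lymphoid lineage, led at 15.81 ± 0.168. Bcl6 read 15.19 ± 0.229 and the receptor Notch3 14.12 ± 0.221. Bcl11b, a factor of T cell commitment, read 11.94 ± 0.130 on its brighter probe and 8.29 on its other probe, an example of how far probes of a gene can differ. Lef1 was the steadiest at 10.46 ± 0.0217, with all 4 arrays between 10.43 and 10.48. Notch1, the receptor that directs progenitors into the T lineage, was near the lower border of the moderate class at 5.76 ± 0.061, and its target Hes1 was the lowest at 4.73 ± 0.269. Foxo1, a factor that promotes survival and homing, had the largest SD at 0.628: Control 3 and 4 read 8.94 and 8.67, above Control 1 and 2 at 7.84 and 7.65.

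A list of receptors and regulators of thymocyte stages and homing was detected as well, 18 of 18, with 2 abundant, 12 moderate and 4 dim. The chemokine receptors Cxcr4, at 13.20 ± 0.0875, and Ccr9, at 12.86 ± 0.189, which guide cells within the thymus, were the abundant ones. Ccr7, used for entry into the medulla and lymph nodes, was moderate at 9.23 ± 0.185. The interleukin 7 receptor Il7r, which immature double positive cells are known to shut off, was dim at 5.05 ± 0.119. S1pr1, the exit receptor of mature thymocytes, was dim at 4.08 ± 0.236. Kit, a receptor of the earliest progenitors, was the lowest at 3.98 ± 0.534. Ccr4 was the remaining dim gene, and it had the largest SD of this list, 0.571.

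**Figure D2:**
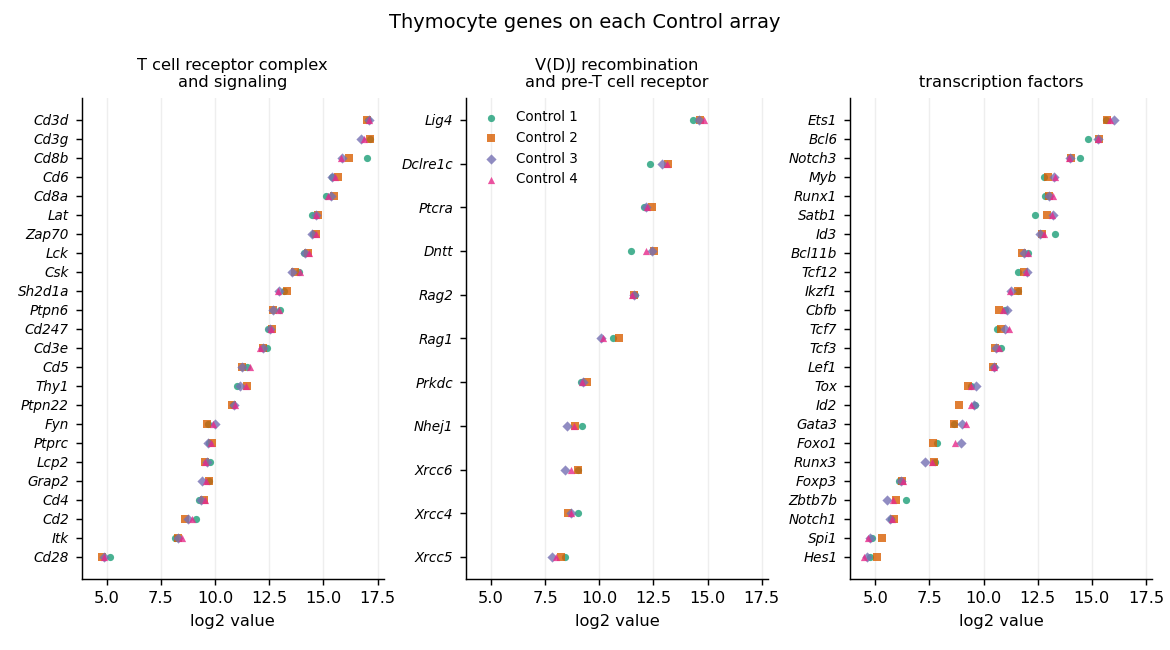
Log2 value (horizontal axis) of each gene of 3 thymocyte lists on each of the 4 Control arrays, ordered by mean within a panel. For most genes the 4 points overlap, as for Lef1 and Rag2, while Cd8b, Dntt and Foxo1 are drawn out.

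The brightest probes of the transcriptome belonged mainly to the translation apparatus. Of the 25 detected genes of the highest mean among those with a symbol and a RefSeq mRNA accession, 18 are named as ribosomal proteins. The first of these was Rps6, a protein of the small subunit, behind 3 gene names without such a symbol. It read 18.21, 18.21, 18.11 and 18.16. Tpt1, which encodes the translationally controlled tumor protein, read 18.11, 18.11, 18.21 and 18.08, and Rps23 read 18.08, 18.08, 18.08 and 18.11. Rplp1, Rps16, Rpl8, Rpl23 and Rpl14 followed with means of 17.82, 17.80, 17.78, 17.69 and 17.67. Further ribosomal genes, Rps3a, Rps2, Rpl35, Rps20, Rpl26, Rpl7a, Rpl32, Rps18 and Rpl9, had means between 17.45 and 17.11. The list also held Rps15a at 16.98 and, under their current names, the ribosomal protein-like genes Rpl37l1 at 16.98 and Rpl34l1 at 16.88. Ribosomal protein genes have many near-identical copies, so a probe may read several of them. The 25 also held the ubiquitin gene Ubb, at 17.61, and the receptor chains Cd3d and Cd3g. The SDs of the 25 genes ran from 0.0130 for Rps23 to 0.211 for Cd3g. Because normalization gives each rank the same value on every array, values recur among these genes. For example, 18.21 was read for Rps6 on Control 1 and 2 and for Tpt1 on Control 3. The smallest of these SDs therefore reflect small shifts of rank.

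Of 72 ribosomal protein genes on the array, all were detected and 69 were abundant, where 4.88% of all genes with a symbol were. The exceptions were Rplp0 at 11.84, Rps26 at 10.89 and Rpl37a at 6.57. Rps26 had the largest SD, 0.569, with 11.71 on Control 1 and 10.84, 10.54 and 10.47 on the other arrays. The median over the list was 16.14, against 7.91 over all detected genes with a symbol. Translation factors were abundant in 12 of 17 cases and detected in all. They ranged from Eef1a1, the elongation factor that brings tRNA to the ribosome, at 16.56 ± 0.0527, down to the initiation factor subunit Eif2s1 at 9.28. The related subunit Eif2s2 had the largest SD of this list, 0.299.

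Many ribosomal protein genes are known to start transcription inside a run of pyrimidines, a signature through which their translation is regulated. Stretches of 30 bases around the annotated start are shown for 4 genes that the values above turn on, because they show where this run lies. They are from RefSeq, build GRCr8, read 5′ to 3′ on the strand of the gene, with the start at base 16 and the longest run of C and T in capitals.
Rps23, chr2:23814502-23814531, plus strand: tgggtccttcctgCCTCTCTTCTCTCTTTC
Rplp1, chr8:71290858-71290887, minus strand: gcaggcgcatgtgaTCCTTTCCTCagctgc
Eef1a1, chr8:88225055-88225084, minus strand: tcgccttggacgTTCTTTTTCgcaacgggt
Cd3d, chr8:54185504-54185533, plus strand: acgaggggagtgCTCgctcacccaggctgg
Within these stretches the run has 17 bases in Rps23, where it reaches the last base and may go on, 10 in Rplp1, 9 in Eef1a1 and 3 in Cd3d. It is shorter in other genes of the same kind, with 6 bases in Rps6 and 4 in each of Rps16 and the elongation factor Eef2. A run of 8 or more C and T within these 30 bases was present in 40 of 56 ribosomal protein genes that have a single start window, or 71.4%. Over all 33469 windows of the table the share was 11.4%. Of the translation factors 2 of 14 had such a run, or 14.3%. The abundant class without the ribosomal proteins had 11.4% as well, in 64 of 560 genes, and the T cell receptor list had it in 0 of 15. Genes without exactly 1 window in the table were left out of the group counts, while the share over all windows includes them.

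The classes differed in the composition of the 300 bases around the start. The median number of CpG pairs was 23 in abundant, 20 in moderate, 9 in dim, 6 in intermittent and 4 in absent genes, and 7 over all windows. As above, classes cover genes with 1 window, while the values over all windows also include genes with several. The letters CCGGAAG, the core that Ets family factors bind, were sought on both strands. They stood in 20.4% of the windows of abundant genes and 18.9% of moderate ones, against 4.93% of dim, 3.30% of intermittent and 3.12% of absent ones and 8.75% of all windows. Of the nuclear genes of oxidative phosphorylation, 10 of 23 held them, and of the T cell receptor list 0 of 15 did. The letters TATAAA within the 50 bases before the start were found in 3.59% of abundant, 1.87% of moderate, 3.96% of dim, 4.59% of intermittent and 4.89% of absent genes and in 2.26% of all windows, with no steady order by signal. These are matches of letters and do not show that a factor was bound.

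Next to the ribosome, the structural and nuclear proteins of small round cells were prominent. Of the actin and thymosin list, 20 of 20 genes were detected and 12 abundant. Prothymosin alpha (Ptma), at 16.72 ± 0.135, and the actin sequestering peptide Tmsb4x, at 16.65 ± 0.144, led, and the actin regulator Was was the lowest at 6.30. The largest SD was that of Capzb, which caps actin filaments, at 0.337. Of chromatin and nucleolar proteins, 20 of 20 were detected and 13 abundant, from Hmgb1 at 16.30 ± 0.111 to Hmga1 at 7.98. Hdac1, a histone deacetylase, had the largest SD at 0.311.

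Energy metabolism was divided unevenly over the classes. Of 27 genes of oxidative phosphorylation, all were detected and 14 were abundant, with Cox7a2, a subunit of cytochrome oxidase, highest at 16.41 and Ndufs1, a subunit of complex I, lowest at 9.37. Atp5f1d had the largest SD, 0.277. Of 17 glycolytic genes, all were detected and 4 were abundant, with Gapdh highest at 13.61. The inducible hexokinase Hk2 was dim at 4.59 ± 0.164, whereas Hk1, the constitutive hexokinase, read 12.18 with the largest SD of this list, 0.281.

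The cultures held transcripts of dividing cells. All 27 genes of S phase and mitosis were detected and 4 were abundant, namely the topoisomerase Top2a, at 14.22 ± 0.103, the kinases Plk1 and Cdk1, and the replication helicase subunit Mcm3. The lowest was Mcm4 at 7.84, and Tk1, the thymidine kinase, had the largest SD at 0.493.

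Of 17 immediate early genes, 16 were detected. The antiproliferative gene Btg2 was abundant at 16.08 ± 0.164, as was Jund at 15.12. Zfp36, an RNA decay factor, was intermittent, above background on 3 arrays. Nr4a1, a gene induced by T cell receptor signals, had the largest SD at 0.716: it read 9.75 and 9.11 on Control 1 and 2 and 10.62 and 10.54 on Control 3 and 4. Heat shock genes were detected in 15 of 15 cases. The constitutive chaperone Hsp90ab1 led at 14.44 ± 0.0483, and the inducible Hspa1b was the lowest and most variable at 4.20 ± 0.625.

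Cell death genes of both directions were detected in the cultures without dexamethasone. All 33 measured members of the list were detected, 3 abundant, 28 moderate and 2 dim. Casp2, an initiator caspase, was the highest at 13.84 ± 0.0488, and Diablo, which frees caspases from inhibition, and Bcl2l1, which encodes the survival protein Bcl-xL, were the other abundant genes. Bbc3, which encodes the death activator Puma, read 12.38 ± 0.395 and Bcl2 8.02 ± 0.218. Bcl2l11, which encodes Bim, read 5.73, 5.10, 5.30 and 5.47 and lay just above the dim border. Markers of unrelated organs, given further on, were flagged at such levels too. Bok was the lowest at 4.31. Hrk, another death activator of the Bcl2 family, had the largest SD at 0.805, with 6.00 and 6.51 on Control 1 and 2 and 7.77 and 7.39 on Control 3 and 4.

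The glucocorticoid receptor was measured at a steady, moderate level. Nr3c1 read 10.65, 10.47, 10.54 and 10.39 on its brighter probe, and its other probe gave a mean of 10.43 ± 0.128. Its chaperones Hsp90ab1, Hsp90aa1 and Hspa8 and the corepressor Ncor1 were abundant. The immunophilin Fkbp5, itself a known target of the receptor, read 12.64 ± 0.0795. Of the 19 genes of this list, 17 were detected. The mineralocorticoid receptor Nr3c2 was intermittent, above background on 2 arrays, and the steroid synthesis enzyme Cyp11a1 was absent. The enzymes that convert corticosterone, Hsd11b1 and Hsd11b2, were dim at 4.57 and 4.35. The largest SD of the detected members was 0.268, of the coactivator Ncoa2. Of the 12 miRNA processing genes, 10 were detected: the helicase Ddx5 was abundant at 15.17 ± 0.0918, Drosha read 10.70 ± 0.150 and Dicer1 8.71 ± 0.121. Xpo5, the exporter of miRNA precursors, was the lowest at 3.55, and it was intermittent, as was Ago3. Both were above background on 3 arrays and read lowest on Control 1, at 2.70 and 3.39. The largest SD of the detected members was that of Ago4, 0.392.

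**Figure D3:**
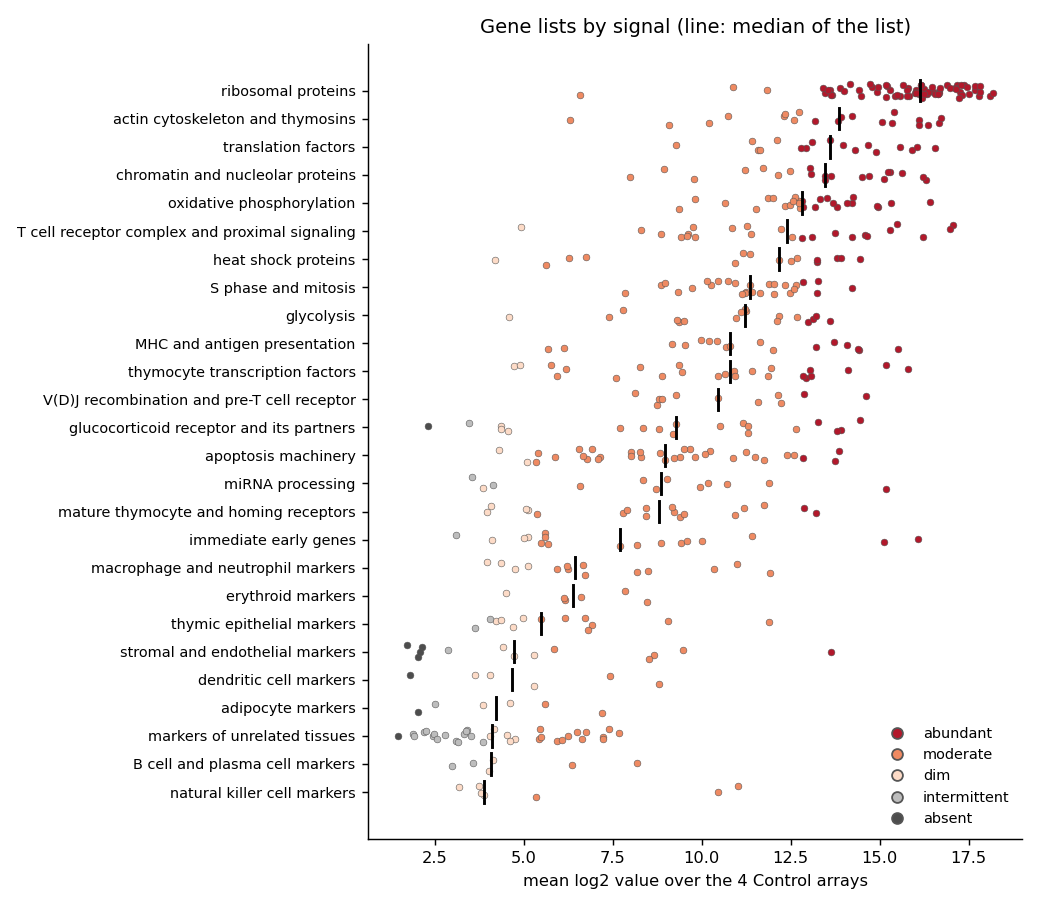
Mean log2 value over the 4 Control arrays (horizontal axis) of every measured member of 26 gene lists (rows, ordered by their median, which is the black line), colored by class. Ribosomal proteins have a median of 16.14, 6 further lists lie above 12, and lists of other cell types lie between 3.87 and 6.45.

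Markers of other cell types were at low levels for the most part, though few were absent. The 14 measured markers of macrophages and neutrophils were all detected, 10 moderate and 4 dim. The secreted proteins of these cells led, with Lyz2 at 11.92, S100a9 at 10.99 and S100a8 at 10.36. C1qb read 8.49, Cd68 8.19, C1qa 6.72, Mpo 6.66, C1qc 6.25, Cd14 6.22 and Csf1r 5.93. The dim ones were Cd163, which had the largest SD at 0.803, Adgre1, Itgam and Mrc1, the lowest at 3.97. Of 6 dendritic cell markers, 5 were detected: the chemokine genes Ccl22 and Ccl17 at 8.81 and 7.42, and Flt3, Clec10a and Siglech in the dim class. Xcr1, the defining receptor of cross-presenting dendritic cells, was absent. Of 6 B cell markers, Blnk at 8.18, Cd79b at 6.35, Jchain and Cr2 were detected, while the defining gene Ms4a1 was intermittent at 2.97. Of 7 natural killer cell markers, Prf1 at 11.02 and Nkg7 at 10.45, which encode proteins of cytotoxic granules also made by T cells, stood above Gzmb at 5.34 and the dim receptors Klrb1a, Klrd1, Ncr1 and Klrk1 at 3.17 to 3.87.

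The epithelial and stromal frame of the thymus was represented unevenly. Of 13 epithelial markers, 11 were detected. Krt18, a keratin, was the highest at 11.89, followed by the adhesion gene Cdh1 at 9.04. Krt14 at 6.92, the epithelial master regulator Foxn1 at 6.81, Cldn3 at 6.72, Krt5 at 6.14 and Cldn4 at 5.47 were moderate, and Krt8, Ccl25, Ccl21 and Psmb11 were dim. Epcam and Aire, defining genes of the epithelium and its medullary part, were intermittent, above background on 3 arrays. Both read lowest on Control 1, at 2.89 and 3.51. Of 13 stromal and endothelial markers, 8 were detected and 4 were absent, namely Dcn, Lum, Tek and Pdgfra. Fibronectin (Fn1) was the only marker of these cell types in the abundant class, at 13.63 ± 0.394. Kdr read 9.46, Col1a1 8.66, Col1a2 8.52, Tagln 5.85, Pecam1 5.30, Cdh5 4.73 and Col3a1 4.40. Of 6 adipocyte markers, Cfd at 7.19, Adipoq at 5.59, Fabp4 and Plin1 were detected and Lpl was absent.

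Genes chosen as markers of organs that thymocytes do not belong to were set beside the flag. Of 34 markers of liver, pancreas, muscle, brain, testis and other organs, 18 were detected, 15 were intermittent and 1, Nphs1 of the kidney filter, was absent. Their median value was 4.11. The detected ones ran from Sftpc at 4.06 to the sperm protamine Prm1 at 7.67, with Pomc at 7.38, Ins1 at 7.24 and Mb at 7.22 next, and included Mbp, Apoa1, Scgb1a1, Cela1, Ins2, Prss1, Gh1, Apob, Serpina1, Myh6, Alb and Tnnt2. A flag above background at values up to about 7.67 was thus also met by genes chosen as markers of other organs. Whether these signals are low transcript levels or unspecific binding was not tested. By symbol family, olfactory receptors were detected in 485 of 1102 cases (44.0%) with a median of 3.45 and none abundant, and 25.4% of them were absent. Vomeronasal receptors of the Vom2r family were detected in 6 of 23 cases. At the other end, 40 of 40 mitochondrial ribosomal genes named Mrpl, 25 of 25 RNA polymerase genes named Polr and 46 of 47 proteasome genes named Psm were detected, 16 of the last in the abundant class.

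The spread between the 4 arrays was small for most genes. Over the 24344 detected genes, the median SD was 0.226 on the log2 scale, and 90% of genes lay between 0.0656 and 0.666. With normexp background correction, whose added offset compresses dim signals, the median SD was 0.110. The 4 values of a gene lay within 0.5 of each other for 12076 genes, or 49.6%. An SD above 0.5 was found for 2821 genes, or for 458 with normexp, and among detected genes with a symbol for 8.93%. An SD above 1 was found for 280 genes, or 1.15%. The median SD fell with signal: it was 0.311 in dim, 0.207 in moderate and 0.128 in abundant genes, and 18.8%, 9.65% and 2.71% of them had an SD above 0.5. An SD above 1 was about as frequent in dim as in moderate genes, with 1.10% and 1.21%, and was found in 0.493% of abundant ones. For the 263 probes printed 10 times on each array, the median SD between arrays was 0.232, and the median SD between the spots of an array, from the scanner signals, was 0.0836 to 0.118. The latter covers the noise of spots alone.

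**Figure D4:**
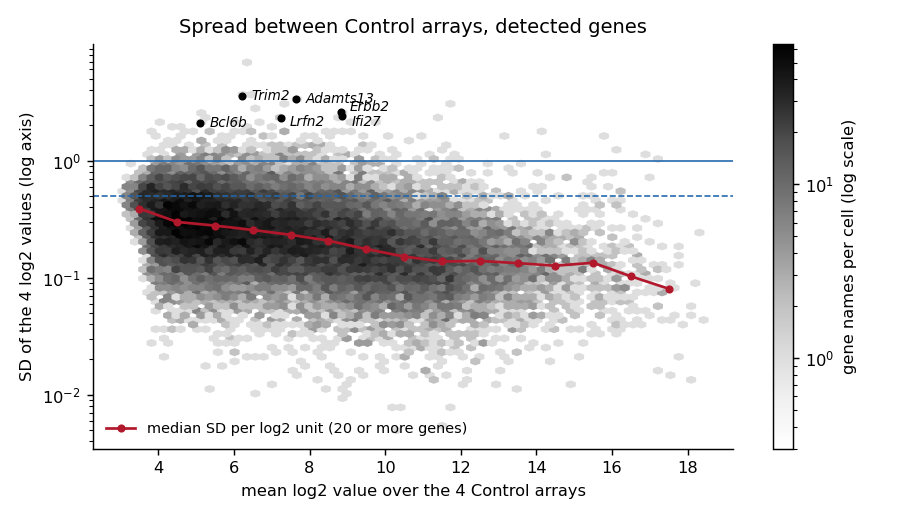
SD of the 4 log2 values (vertical axis, log scale; dashed line at 0.5, solid line at 1) against the mean log2 value of each of the 24344 detected genes, shaded by the number of genes per cell. The red line joins the median SD per log2 unit and falls with the signal, and the 6 named genes of the largest SD stand above 2.

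The arrays were not equally far from each other. The median absolute difference over detected genes was smallest between Control 1 and 2, at 0.190, and between Control 3 and 4, at 0.197. It was 0.209 between Control 2 and 4, 0.261 between Control 1 and 4, 0.278 between Control 2 and 3 and largest between Control 1 and 3, at 0.342. A difference above 1 was seen for 495 genes between Control 1 and 2 and for 2486 between Control 1 and 3. Control 3 was the array farthest from the gene's mean for 35.5% of detected genes and for 148 of the 280 genes with an SD above 1. Without Control 3 the median SD was 0.193. Without Control 1, which leaves the 3 arrays of the common slide, it was 0.210.

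The ribosomal and respiratory genes followed this division by small amounts. Of 72 ribosomal protein genes, 57 and 58 lay above their own mean on Control 1 and 2, and 13 and 10 did on Control 3 and 4, with median deviations of 0.0939, 0.0448, -0.0672 and -0.0740. Of 27 oxidative phosphorylation genes, 25 lay above their mean on each of Control 1 and 2 and 3 on each of Control 3 and 4. Over all 11924 detected genes with a symbol the counts on the 4 arrays were 6820, 6513, 4639 and 6295.

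Some gene groups differed between the Control arrays in several of their members. Of 17 detected genes of the antigen presentation list, 8 had an SD above 0.5, beside 8.93% of all detected genes with a symbol, and these 8 did not all order the arrays alike. Class II molecules present antigen on epithelial and myeloid cells and B cells. The class II chain RT1-Bb read 9.98, 8.91, 10.40 and 10.61, RT1-Da 10.89, 9.85, 11.15 and 10.87, and RT1-Db1 10.84, 9.96, 11.26 and 11.14. On each of them Control 2 was the lowest array, by 0.875 to 1.07. The invariant chain Cd74 read 11.74, 10.86, 12.03 and 11.96, and RT1-Ba 5.77, 4.86, 6.05 and 6.07. Ciita, the regulator that switches on class II genes, read 4.45, 3.24, 4.73 and 4.92 and was looked up after these values were seen. A separate probe of RT1-Da gave 8.66, 7.58, 8.52 and 8.43, again with Control 2 lowest. RT1-DMa, which helps to load peptides onto class II, did not follow, with 10.45 on Control 2 and 10.24 to 10.52 on the others. RT1-DOa, which encodes a chain of a class II modulator, did not either: it was dim, lowest on Control 1 and highest on Control 4, with values of 4.21, 4.64, 5.04 and 6.09. Of 9 class II genes in a list drawn up after these values were seen, 7 were lowest on Control 2, beside 19.1% of all detected genes with a symbol. Control 2 was also the lowest array for 4 of 5 detected dendritic cell markers, Ccl17, Ccl22, Clec10a and Siglech, and for 3 of 4 B cell markers, Cd79b, Cr2 and Jchain. The exceptions Flt3 and Blnk were lowest on Control 3. Control 2 was the lowest array for 1 of 11 detected thymic epithelial markers and 3 of 14 macrophage and neutrophil markers. The part of these cells in the class II values was not tested.

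Class I genes divided the arrays another way. RT1-A2 read 13.83, 13.74, 14.84 and 15.19, and RT1-CE5 13.64, 13.58, 14.38 and 14.68, so that Control 3 and 4 lay above Control 1 and 2 on both. The common light chain B2m stayed between 14.31 and 14.52. Tap2, a chain of the peptide transporter, read 14.64 on Control 1 and 15.74 to 15.88 on the others, while its partner Tap1 read 11.90 to 12.19. RT1 genes are highly polymorphic and closely related, so a probe may read several of them, and may bind the alleles of outbred rats to different degrees. Whether that contributes was not tested. The proteasome subunits of this list, Psmb8 and Psmb9, read 13.71 ± 0.110 and 13.22 ± 0.417.

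Hemoglobin transcripts, which come from red blood cells and their precursors, differed widely between the arrays. The alpha globin Hba-a3 read 13.73, 14.68, 12.29 and 13.44, and the beta globin Hbb-b1 13.43, 14.45, 12.30 and 13.19, both abundant. These genes were named after their values were seen. Hbb, a member of the erythroid list and its highest, read 8.41, 9.73, 7.11 and 8.61, with the largest SD of that list, 1.07. The heme synthesis enzyme Alas2 read 7.94, 8.78, 6.77 and 7.88. On these 4 genes Control 2 was the highest array and Control 3 the lowest. Of the 6 erythroid markers, 4 were highest on Control 2 and 4 lowest on Control 3, where 23.6% of detected genes with a symbol were highest on Control 2 and 39.9% lowest on Control 3. The membrane exchanger Slc4a1, at 6.23, 6.58, 5.79 and 5.93, had the same order at its ends. The others were ordered differently. The receptor Epor read 5.93, 5.93, 6.30 and 6.44, with Control 4 highest. Ahsp, which binds free alpha globin, read 6.58, 6.78, 6.61 and 6.43, with Control 4 lowest. The erythroid factor Klf1 was dim and read 4.87, 4.85, 3.75 and 4.57, with Control 1 highest.

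Most measured genes of the response that cells mount when amino acids run short were lowest on Control 2. This response runs through the factor Atf4 and raises enzymes of amino acid synthesis, tRNA synthetases and amino acid transporters. A list of 35 such genes was drawn up after some of their values were seen, so it describes these arrays and supports nothing beyond them. All were on the array and 33 were detected. Of these, 25 were lowest on Control 2, or 75.8%, beside 19.1% of all detected genes with a symbol. An SD above 0.5 was found for 16, or 48.5%, beside 8.93%, and 22, or 66.7%, were highest on Control 4, beside 20.8%. Asns, the asparagine synthetase, read 11.46, 9.48, 11.60 and 11.88. Chac1, which degrades glutathione, read 8.82, 5.77, 8.81 and 9.25, and its separate probe 4.63, 3.62, 4.57 and 5.35.

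Members of the other branches had the same low array, though not all of them. Among enzymes, Shmt2 read 11.69, 10.28, 11.70 and 12.10 and Psat1 6.18, 4.52, 5.34 and 5.93. Among tRNA synthetases, Cars1 read 10.85, 9.43, 11.08 and 11.35, Aars1 11.57, 10.55, 11.64 and 12.03 and Iars1 12.26, 11.09, 12.12 and 12.44. The separate Iars1 probe read 7.81, 7.54, 9.55 and 9.95, so on it Control 1 was low as well. Among transporters, Slc7a3 read 8.14, 4.59, 6.83 and 7.82, Slc7a5 7.55, 5.95, 8.11 and 8.38 and Slc1a4 5.34, 3.00, 5.64 and 6.27. The factor Ddit3 read 10.98, 9.66, 11.05 and 11.30, and Atf4 itself varied less, from 13.14 on Control 2 to 13.60 to 13.72 on the others. Members that were not lowest on Control 2 were the enzymes Gpt2, Pck2, Pycr1 and Cth, the transporter Slc7a11, the stress regulators Ddit4 and Nupr1, and the growth factor gene Vegfa, the last with an SD of 0.0204. The chaperone Hspa5, which responds to stress of the endoplasmic reticulum, read 13.20 to 13.33 on all arrays.

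Several inflammatory cytokine genes were highest on Control 2. Interleukin 1 beta (Il1b) read 7.45, 9.45, 7.91 and 7.14, and its separate probe 7.03, 9.01, 7.51 and 6.74. The neutrophil attractants Cxcl2, at 5.84, 7.59, 6.05 and 5.68, and Cxcl3, at 5.34, 6.37, 4.77 and 4.62, followed, as did Cd14, the myeloid endotoxin receptor, at 6.14, 7.29, 5.81 and 5.66. Of 12 inflammatory genes listed after these values were seen, which are cytokine genes except for the cyclooxygenase gene Ptgs2, 8 were detected and 5 of them were highest on Control 2, beside 23.6% of all detected genes with a symbol. Ccl3 and Ccl4, at 11.29 ± 0.239 and 9.65 ± 0.212, were among those that were not, and Il6 was absent. Of the 14 macrophage and neutrophil markers, 5 were highest on Control 2, beside the same 23.6%: Cd14, S100a8, S100a9, Itgam and Adgre1. S100a8 read 10.47, 11.05, 9.70 and 10.21, and S100a9 11.01, 11.47, 10.58 and 10.88. The other 9 were highest on another array. The part of macrophages and neutrophils in these differences was not tested.

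**Figure D5:**
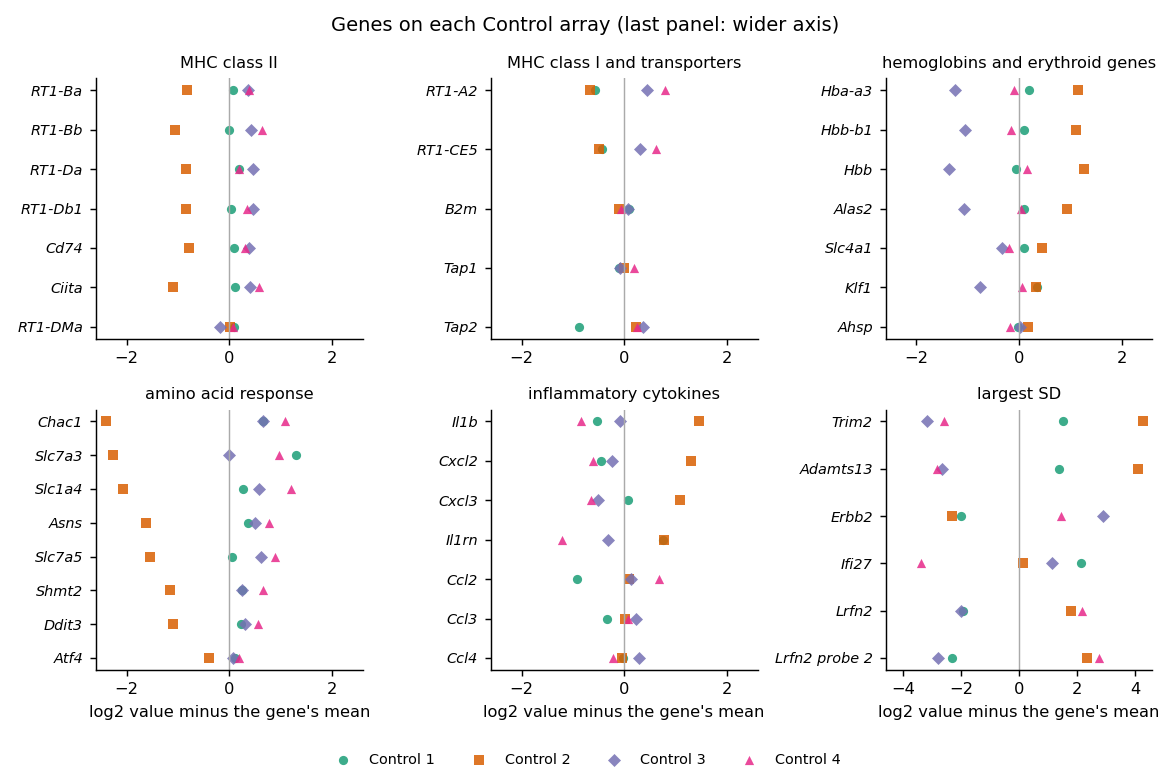
Log2 value minus the gene's mean (horizontal axis) on each of the 4 Control arrays for genes of 5 functions and for the 5 named genes of the largest SD, with Lrfn2 shown by both of its probes; the last panel has a wider axis. Control 2 stands low for the plotted class II genes other than RT1-DMa and for the amino acid response genes and high for hemoglobin genes, Il1b, Cxcl2 and Cxcl3, while Control 3 and 4 stand high for RT1-A2 and RT1-CE5.

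None of the 15 genes of the largest SD, among those with a symbol and a RefSeq mRNA accession, was on the thymocyte lists. Trim2, a ubiquitin ligase known from neurons, read 7.74, 10.47, 3.03 and 3.61, with an SD of 3.53. Its other 4 probes were below background on all arrays, at means of 1.36 to 2.35. Adamts13, the protease that trims von Willebrand factor, read 9.03, 11.77, 5.00 and 4.82 with 1 probe. Both had the order Control 2, then Control 1, above Control 3 and 4. Erbb2, a growth factor receptor, read 6.82, 6.50, 11.73 and 10.27, and Mmp28, Or9i1b, Mixl1, Spdya, Nfib and Cat also read higher on Control 3 and 4 than on Control 1 and 2, with SDs of 1.70 to 1.83. Nfib was covered by 5 probes, and those other than the brightest had SDs of 0.225 to 0.837. On the most variable of these, at 4.32, 4.39, 6.12 and 5.06, Control 3 and 4 were again the highest arrays. Bcl6b, Meak7, Gata4 and Ppil6 were high on Control 1 alone, as with Gata4 at 7.38 against 3.28, 3.56 and 4.16.

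In 2 of these genes the arrays were ordered differently. Ifi27, an interferon-inducible gene, read 10.99, 8.99, 9.99 and 5.50, with Control 4 far below. Lrfn2, an adhesion molecule of synapses, read 5.30, 9.04, 5.23 and 9.40, and its other probe read 4.70, 9.36, 4.21 and 9.78. Both Lrfn2 probes thus placed Control 2 and 4 well above Control 1 and 3. Of 21 genes with an SD above 1 and a further detected probe, 3 had an SD above 1 on that probe (14.3%) and 9 above 0.5 (42.9%). Of 3003 genes whose brightest probe had an SD of 0.5 or less, 5.93% had an SD above 0.5 on the further probe.

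Some letters recurred in the probes of variable genes. Stretches of 30 bases from the probes of 4 of the 15 genes are shown because they hold these letters, in capitals. They are the array's own sequences, 5′ to 3′ as listed, and the coordinates are those of the whole 60-base probe on build rn3; what the annotation places there was not looked up.
Trim2, chr2:175862240-175862299, minus strand: gGTTAGGGtaagatagaatgtattatacat
Erbb2, chr10:87256194-87256253, plus strand: CTCTCTCtcctgggaagaatggggttgtca
Or9i1b, chr1:217228834-217228893, plus strand: acatgtaccttCTCTCTCtccttctgtgaa
Mixl1, chr13:96618206-96618265, minus strand: gaaacttactcCTCTCTCtctgaagatatt
The letters were chosen after the spread was seen, and the probe was read on its own strand. Of 132 detected probes with CTCTCTC, 11 had an SD above 1, or 8.33%, where all detected genes had 1.15%. The letters GTTAGGG gave 10.9% of 46 probes. Of 98 probes with CACCACC it was 10.2%. For the overlapping letters CCACCAC it was 9.88% of 81 probes. Of 94 probes with CCTCCTC it was 5.32%. The reverse complement of each of these 5 had a lower share than its partner, from 1.01% of 99 probes for GGTGGTG to 3.97% of 151 for GAGAGAG. Probes with any of the 5 but GTTAGGG numbered 379 and had median deviations of -0.102, -0.116, 0.143 and 0.0585 on Control 1 to 4. They made up 27 of the 280 genes with an SD above 1, so that 253 of these genes hold none of the 4.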

How the data were processed

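Cy3-labeled RNA of 4 Control cultures was read on 1-color Agilent Whole Rat Genome arrays. The authors extracted spot intensities with Agilent Feature Extraction, which subtracts background and spatial trends, and the deposited intensity columns are not normalized between arrays. The values used are log2 signals that the authors deposited after quantile normalization of all 8 arrays together, with a median polish giving 1 value a probe. The software's flags gave detection, and no probe was saturated. Between 70 and 138 outlier spots per array were left out of the scanner values. The deposited and scanner values of an array correlated at a Spearman rho of 0.999998 or more. Array names were tied to RefSeq genes by accession, symbol, description or synonym. Signal over background, rather than a count of reads, and the number of arrays limit the precision.

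One group was described, so no test between groups was run, and a Dixon limit only marked single values far from the other 3. Named genes were the 5 markers, the 25 brightest and the 15 of the largest SD among genes with a symbol and a RefSeq mRNA accession, the highest, lowest and most variable member of each list, and every detected marker of other cell types. Members and lists were chosen with earlier results of these data known, and the amino acid, class II, hemoglobin and cytokine lists after their values were seen. Alternatives changed the arrays, the probe, the flag, the names, the scaling, the background (normexp, limma 3.58.1) and the thresholds. Scripts ran in Python 3.11.15 and R 4.3.3 and were tested on simulated data. A few genes that these rules name are not reported here.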

Additional observations from a re-analysis of the deposited data

Results flagged for a closer look

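On 4 arrays, 1 value was called far from the others when its gap to the nearest, divided by the range, exceeded the Dixon limit for groups of 4. Of 159 named genes 12 met this, or 7.55%, against 4.70% of all detected genes, and chance gives about 1 in 20. The named genes include those of the largest SD, so their share is not an independent count. Control 1 stood apart for Meak7 (0.918), Ppil6 (0.882), Klrk1 (0.924) and Klrd1 (0.915), on which it was the highest array, and for Tap2 (0.888), Hk1 (0.836) and Cdh1 (0.877), on which it was the lowest. Control 2 was the lowest for Cd3d (0.878). Control 3 was the lowest for Krt18 (0.913), at 11.31 against 12.05 to 12.12. Control 4 was the highest for Hspa1b (0.884), Ubb (0.832) and Rps23 (1), the last with the same value on the other 3 arrays. Cd3d, Ubb and Rps23 are at the bright end, where values recur by rank, so a small shift of rank can meet the limit.

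In data outside the Control arrays, only genes with a symbol were looked at. Of the 1240 absent on all 4 Control arrays, 2 were above background on all 4 arrays of cultures given dexamethasone. These were the fructose transporter gene Slc2a5, at a Control mean of 1.69, and Mmrn1, at 1.51. They were chosen after their values were seen. In the other direction, 9 of the 11924 detected genes with a symbol were above background on none of the arrays given dexamethasone. Their Control means were 3.27 to 4.24, within the dim class.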

How the results depend on the processing

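The number of detected genes was 24353 to 27317 with 1 array left out, and highest without Control 1. The number of absent genes was 4733 to 5732, of abundant genes 1218 to 1366, the median SD 0.193 to 0.234 and the number of genes with an SD above 0.5 2240 to 3628. With the software's weaker flag for a positive and significant signal, the absent genes fell to 718, so absence depends on the flag, and the median SD was 0.260. With only gene names that carry an NM_ accession there were 6698 detected, 812 absent and 335 abundant genes and 639 with an SD above 0.5, since fewer genes were counted. The median SD was then 0.203, and the cause was not tested. With the 90th percentile as border 2435 genes were abundant. With normexp background correction the median SD was 0.110 and 458 genes had an SD above 0.5; its offset of 50 compresses dim signals. Of the 1218 abundant genes, 1216 stayed abundant with scanner values scaled by the 75th percentile, 1180 with normexp and 1023 with the median over a gene's probes. With the weaker flag all 1218 stayed, which was fixed in advance, because that flag adds only dimmer genes and so lowers the border. Of 46 recomputed values, 35 stayed within the set tolerance, a factor of 1.5 for a count and 0.0183 for the median SD. This tolerance is wide: 3628 genes with an SD above 0.5 against 2821 in the main result fell within it. No paired analysis was possible because the results come from 1 group and no test. Near background a probe gives only an upper bound, and 3908 detected gene names had over 1 probe, with a median gap of 2.18 between the brightest and the dimmest.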

Other observations

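Genes set apart on 1 array by more than 0.8 from the nearest other array, a limit set after the data were seen, were counted for each array. Control 3 was the highest for 347 detected genes and the lowest for 177. Control 1 was the highest for 192 and the lowest for 68. Control 2 was the highest for 113 and the lowest for 102, and Control 4 the highest for 25 and the lowest for 80. On Control 3 the defensin gene RatNP-3b, at 10.80 against 11.62 to 11.92, and the neutrophil protease gene Ctsg, at 6.42 against 7.36 to 8.22, were lowest. On Control 4 the scavenger receptor gene Cd36, at 7.13 against 8.33 to 8.67, was lowest. These genes were also chosen after their values were seen.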
